A study of Mus musculus with 9 samples.

Results

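The genes described here are 9 transcripts associated with neutrophils and with the cytokine interleukin-1 (IL-1), namely S100a8, S100a9, Lcn2, Retnlg, Csf3r, Trem1, Il1b, Il1a and Il1rn. They were chosen by symbol, with earlier results of these data known, and all 9 were found among the 54429 symbols of the count table. RNA-seq counts were available from 9 whole tumors of the mouse neuroblastoma line NB9464, grown under the skin of wild-type C57BL/6 mice. Treatment began at a tumor volume of 250 mm3, and the 3 groups held 3 tumors each. Vehicle tumors received vehicle alone. R788 + anti-PDL1 tumors received R788 (fostamatinib), a prodrug inhibitor of the kinase Syk, at 50 mg/kg 5 times a week, together with the PD-L1 blocking antibody 10F.9G2. Rad + R788 + anti-PDL1 tumors received both agents and 10 Gy of radiation, and are called irradiated below. The series text lists 4 treatment days, from day 28 to day 37, without assigning them to an agent. Groups given R788, antibody or radiation alone were not analysed here, so the parts of R788 and of the antibody cannot be told apart. The labels do not say whether the tumors of a group came from separate mice. The p-values therefore measure only the spread between these samples, which may be technical.

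Neutrophils are short-lived phagocytes that enter inflamed tissue and tumors from the blood. They carry large amounts of the calcium-binding proteins S100A8 and S100A9, which together form calprotectin, and they depend on the receptor for granulocyte colony-stimulating factor, CSF3R. IL-1 alpha and IL-1 beta are inflammatory cytokines that act through the receptor IL-1R1 and the adaptor MyD88, and IL-1RN is a secreted antagonist that occupies the same receptor without signalling. Macrophages, keratinocytes and other cells also make several of these transcripts, among them Il1b, Il1rn, S100a8, S100a9 and Lcn2.

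All 9 genes were expressed at low levels, and 7 of them passed the filter on low counts. Trem1 and Retnlg did not pass. Levels are given as CPM, counts scaled to library size (by the TMM method), on which 3 counts, the most that a count of 0 allows, correspond to 0.115 to 0.221 CPM in the different libraries. Total counts were 18276683 to 23397886 per library. Irradiated replicate 1 stood apart from the others, with Pearson r from 0.865 to 0.907 across genes, a TMM factor of 0.743, and 1.97% of counts in mitochondrial genes against 3.48% to 5.71% elsewhere.

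The name neutrophil was only partly borne out by the other marker genes. Ly6g, the surface marker by which mouse neutrophils are usually recognised, and Ngp, a granule protein, had 0 counts in all 9 libraries. Mpo (myeloperoxidase) had 0 to 4 counts, Elane (neutrophil elastase) 0 to 3, and the chemokine receptor Cxcr1 0 to 1. Cxcr2, the receptor for neutrophil-attracting chemokines, was present with 12 to 60 counts, and the collagenase Mmp8 with 0 to 28. Of 30 neutrophil genes outside the 9, 17 passed the filter. The summed level of all 30 was 36.9 to 44.6 CPM in vehicle, 40.5 to 91.3 CPM in R788 + anti-PDL1 and 38.8 to 76.0 CPM in irradiated tumors. The gelatinase gene Mmp9 alone held 76.1 of 91.3 and 62.6 of 79.9 CPM in R788 + anti-PDL1 replicates 1 and 3. Without Mmp9, a choice made after seeing the data, the other 29 genes summed to 26.4, 27.1 and 33.9 CPM in vehicle, 15.2, 28.1 and 17.3 CPM in R788 + anti-PDL1 and 39.6, 15.7 and 28.3 CPM in irradiated tumors, with overlap between the groups. The genes are therefore called neutrophil-associated here. In bulk tumors, fewer cells of a type and less RNA per cell cannot be told apart. The tumor markers Mycn (1265 to 6107 counts) and Hand2 (6545 to 12901) were abundant, whereas Th, the first enzyme of catecholamine synthesis, had 0 counts throughout.

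Several of the genes lie side by side in the genome. S100a8 (ENSMUSG00000056054.9, GRCm38 chromosome 3, 90668978 to 90670035, plus strand) and S100a9 (ENSMUSG00000056071.12, 90692632 to 90695721, minus strand) are 22.6 kb apart. Il1a (ENSMUSG00000027399.1, chromosome 2, 129299610 to 129309972, minus strand) and Il1b (ENSMUSG00000027398.13, 129364570 to 129371139, minus strand) are 54.6 kb apart. Lcn2 (ENSMUSG00000026822.14, 32384633 to 32388252, minus strand) and Il1rn (ENSMUSG00000026981.15, 24336853 to 24351494, plus strand) are on the same chromosome as the IL-1 genes. Il1b overlaps Il1bos, Il1a overlaps Gm14023 and Trem1 overlaps AC241601.2, each on the other strand. The strandedness of the libraries was not given in the sources used here, so the counts of these 3 genes are uncertain to that extent.

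The promoters of the 4 genes with the lowest unadjusted p-values in the first comparison below are shown because S100a8, S100a9 and Il1b had similar patterns across the tumors and Lcn2 had another. Each is 300 bases from RefSeq (GRCm38.p6), 250 before and 50 from the annotated start, read 5′ to 3′ on the strand of the gene, at chr3:90668821-90669120 (plus), chr3:90695672-90695971 (minus), chr2:129371090-129371389 (minus) and chr2:32387690-32387989 (minus). Capitals mark matches, on either strand, to TATAAA, a core promoter element, to TTGCNNAA, bound by C/EBP factors, to TGANTCA, bound by AP-1, to GAGGAAG, bound by PU.1, or to the kappaB motif.
S100a8: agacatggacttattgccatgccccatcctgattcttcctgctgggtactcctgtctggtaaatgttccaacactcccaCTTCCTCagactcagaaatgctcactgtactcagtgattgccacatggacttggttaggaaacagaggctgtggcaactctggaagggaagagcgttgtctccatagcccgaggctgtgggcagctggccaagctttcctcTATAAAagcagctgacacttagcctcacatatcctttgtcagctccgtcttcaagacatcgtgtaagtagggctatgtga
S100a9: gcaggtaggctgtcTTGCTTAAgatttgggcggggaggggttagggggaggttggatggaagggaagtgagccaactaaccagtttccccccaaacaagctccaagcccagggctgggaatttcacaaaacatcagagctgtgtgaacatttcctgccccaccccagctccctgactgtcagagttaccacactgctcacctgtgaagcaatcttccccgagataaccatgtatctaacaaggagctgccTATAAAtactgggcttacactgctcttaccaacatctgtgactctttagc
Il1b: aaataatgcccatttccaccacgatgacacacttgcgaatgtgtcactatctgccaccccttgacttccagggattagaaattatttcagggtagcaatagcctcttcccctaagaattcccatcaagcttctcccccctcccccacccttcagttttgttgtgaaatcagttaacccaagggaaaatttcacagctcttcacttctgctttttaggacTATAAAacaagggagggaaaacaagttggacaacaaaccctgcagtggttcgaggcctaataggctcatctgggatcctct
Lcn2: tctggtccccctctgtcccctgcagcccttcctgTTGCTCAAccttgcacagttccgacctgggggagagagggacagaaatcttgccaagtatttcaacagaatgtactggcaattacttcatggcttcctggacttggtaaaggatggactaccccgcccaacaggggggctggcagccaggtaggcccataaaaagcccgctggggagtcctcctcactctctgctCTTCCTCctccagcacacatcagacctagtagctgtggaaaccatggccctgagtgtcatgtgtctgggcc
TATAAA was present in S100a8, S100a9 and Il1b and not in this window of Lcn2. The match in S100a9 begins at the RefSeq start itself, and the Lcn2 window lies wholly downstream of the GENCODE start of that gene and covers only its RefSeq start. The C/EBP motif was present in S100a9 and Lcn2, and GAGGAAG, on the other strand, in S100a8 and Lcn2. The 9 genes had 11 such windows, 3 of them for Il1rn. TATAAA matched in at least 1 window of 5 genes, the C/EBP motif in 3, GAGGAAG in 4, TGANTCA in 2 and the kappaB motif in 1. Among all 32851 promoter windows of this length the shares with a match were 13.6%, 10.8%, 13.6%, 7.8% and 8.5%, in the same order. A match is a description of the letters, not of binding. The motifs did not overlap one another in the windows printed.

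The first comparison set R788 + anti-PDL1 against vehicle, for the effect of the drugs in large tumors. S100a8, S100a9, Lcn2 and Il1b had lower levels in all 3 R788 + anti-PDL1 tumors than in any vehicle tumor, with means 3.45-fold to 11.3-fold lower. With edgeR's quasi-likelihood test and Benjamini-Hochberg adjustment over 15931 genes, 0 of the 7 tested genes were called, against 0.678% of all genes, and 4 had an unadjusted p under 0.05, against 11.7%. DESeq2 called 4 of them, S100a8, S100a9, Lcn2 and Il1b, where it called 4.86% of the genes to which it gave an adjusted p. The difference between the tools was in the calls and not in the estimates, which were nearly equal for the 7 genes. With each library left out in turn, DESeq2 called S100a9 in 7 of 7 fits, S100a8 in 4, Lcn2 in 4 and Il1b in 2. Over all genes these fits called from 368 of 15879, without R788 + anti-PDL1 replicate 3, to 2068 of 15927, without irradiated replicate 1. S100a8 and Lcn2 were not called without vehicle replicate 2 or R788 + anti-PDL1 replicate 1 or 3, and Il1b was called only without vehicle replicate 1 or irradiated replicate 1. With edgeR, S100a9 was called without irradiated replicate 1 (log2 fold change -3.41, adjusted p = 0.0328). That fit called 866 of 15931 genes, against 108 with all libraries. Groups did not overlap at 5 of the 7 tested genes, against 30.1% of all genes, and all 5 were lower. The median log2 fold change of the 7 was -1.78, against -0.02 for all genes tested. S100a8, S100a9 and Lcn2 were at 0.0881 to 0.382 CPM in R788 + anti-PDL1 and passed the low-count filter through the other tumors. With levels this low in 1 group, the filter keeps only genes that are higher elsewhere, which bears on the shares and the median.

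S100a9, the larger subunit of calprotectin, had the lowest adjusted p of the 9 genes in this comparison. Its level was 0.882, 2.74 and 4.00 CPM in vehicle replicates 1 to 3 (16, 61 and 73 counts) and 0.0881, 0.382 and 0.205 CPM in R788 + anti-PDL1 (2, 10 and 5 counts). The groups did not overlap, and the means were 2.54 ± 1.57 and 0.225 ± 0.148 CPM (SD, n = 3), 11.3-fold lower with treatment. On the log2 scale the difference was -3.45 ± 0.74 (SE, edgeR adjusted p = 0.0831, DESeq2 adjusted p = 0.000466). S100a8, its partner, had 0.607, 3.36 and 1.64 CPM in vehicle (11, 75 and 30 counts) and 0.176, 0.344 and 0.164 CPM in R788 + anti-PDL1 (4, 9 and 4 counts). Vehicle replicate 1 was the lowest vehicle tumor for both subunits and lay nearest to the treated tumors. For S100a8 the log2 fold change was -3.0 ± 0.73 (edgeR adjusted p = 0.11, DESeq2 adjusted p = 0.00529). Each R788 + anti-PDL1 tumor had at most 10 counts of either subunit, so these folds rest on few reads.

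Lcn2 encodes lipocalin-2, an iron-sequestering protein of neutrophil granules that epithelial and tumor cells also secrete. It had 1.05, 1.61 and 0.328 CPM in vehicle (19, 36 and 6 counts) and 0.0881, 0.191 and 0.164 CPM in R788 + anti-PDL1 (2, 5 and 4 counts). Vehicle replicate 3, high in S100a9 and Il1b, was here the lowest vehicle tumor. Its log2 fold change was -2.70 ± 0.67 (edgeR adjusted p = 0.119, DESeq2 adjusted p = 0.0114). Retnlg (ENSMUSG00000022651.6, chromosome 16, 48872621 to 48874496) encodes a resistin-like protein of myeloid cells. It had 2, 9 and 2 counts in vehicle, 0, 0 and 2 in R788 + anti-PDL1, and 3, 2 and 0 in irradiated tumors, so 8 of its 9 counts were at or under the floor of 3. It was not tested.

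**Figure D1:**
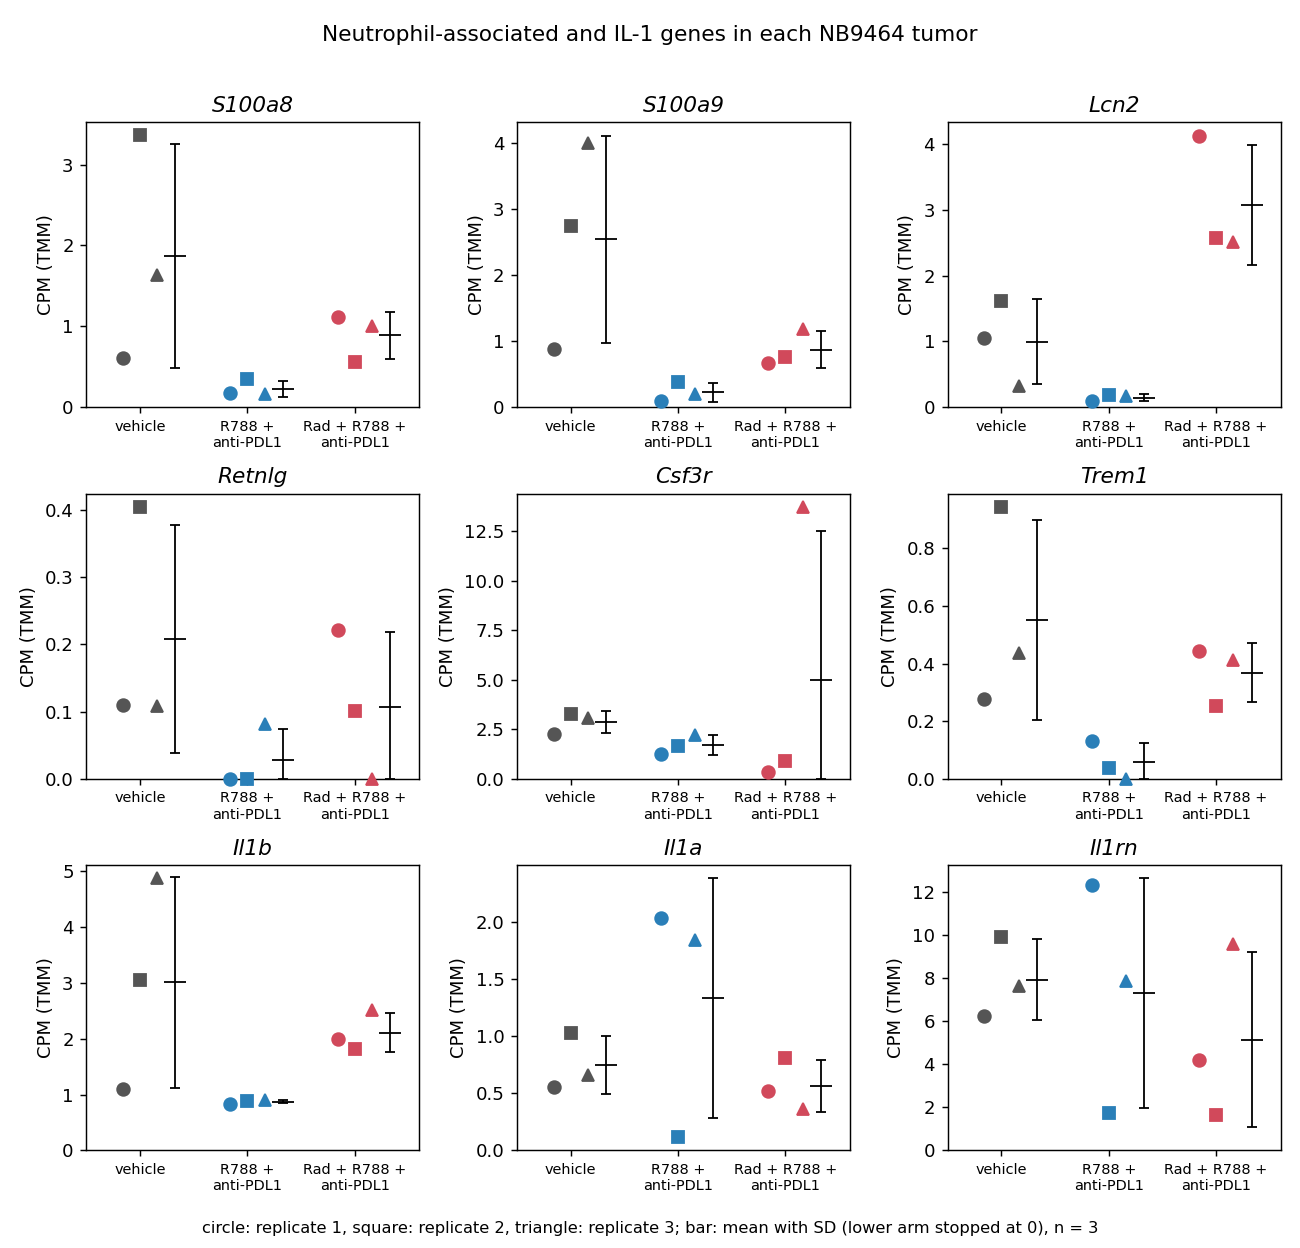
Levels of the 9 genes in CPM (y axis, linear, scaled by TMM) in each tumor of the 3 groups (x axis), with a marker per replicate and a bar for the mean with SD (n = 3). S100a8, S100a9, Lcn2 and Il1b are lowest in the R788 + anti-PDL1 tumors, Lcn2 is highest in the irradiated tumors at 2.51 to 4.13 CPM, and a single irradiated tumor holds the highest Csf3r level at 13.7 CPM.

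The IL-1 ligands did not move together. Il1b, the inducible ligand that is cut to its active form by caspase-1, had 1.10, 3.05 and 4.87 CPM in vehicle (20, 68 and 89 counts) and 0.837, 0.878 and 0.901 CPM in R788 + anti-PDL1 (19, 23 and 22 counts). The treated tumors were close to one another, and the vehicle tumors ranged from just above them to far above. The log2 fold change was -1.78 ± 0.54 (edgeR adjusted p = 0.21, DESeq2 adjusted p = 0.0375). Il1a, the ligand that is active without cutting, had 0.552, 1.03 and 0.657 CPM in vehicle and 2.03, 0.115 and 1.84 CPM in R788 + anti-PDL1. R788 + anti-PDL1 replicates 1 and 3 were above all vehicle tumors and replicate 2 was below them, at 3 counts. Its log2 fold change was 0.82 ± 0.85 (edgeR adjusted p = 0.787), and it was 1.36 without replicate 2.

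Il1rn, the antagonist, had 6.23, 9.91 and 7.61 CPM in vehicle and 12.3, 1.72 and 7.86 CPM in R788 + anti-PDL1. The same R788 + anti-PDL1 replicate 2 was low, and the 2 groups overlapped. The log2 fold change was -0.12 ± 0.72 (edgeR adjusted p = 0.974), with a 95% interval from -1.54 to 1.30, and it was 0.35 without that tumor. Per base of exon, Il1rn was 1.95, 1.12 and 0.538 times as abundant as Il1b in vehicle replicates 1 to 3, and 5.08, 0.674 and 3.01 times in R788 + anti-PDL1. The ratio was 0.727, 0.306 and 1.32 in the irradiated tumors. The ratios of the 3 groups overlapped, with R788 + anti-PDL1 replicate 2 again apart from its group.

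The receptors among the 9 genes are Csf3r and Trem1. Csf3r (ENSMUSG00000028859.14, chromosome 4, 126024550 to 126044440), the receptor for granulocyte colony-stimulating factor, had 2.26, 3.27 and 3.07 CPM in vehicle and 1.23, 1.68 and 2.21 CPM in R788 + anti-PDL1. The groups were adjacent without overlapping, and the log2 fold change was -0.75 ± 1.03 (edgeR adjusted p = 0.842). DESeq2 gave no p for this gene, whose highest value is described with the irradiated tumors. Trem1 (ENSMUSG00000042265.13, chromosome 17, 48232768 to 48246924), a receptor that amplifies inflammatory signalling in neutrophils and monocytes through the adaptor encoded by Tyrobp, had 5, 21 and 8 counts in vehicle and 3, 1 and 0 counts in R788 + anti-PDL1. All 3 treated tumors were at or under the floor, and the gene was not tested. Tyrobp itself overlapped between the groups, at 7.22 to 18.9 and 14.3 to 15.4 CPM.

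Vehicle replicate 1 had lower levels of several inflammatory transcripts than vehicle replicates 2 and 3, which bears on the values of S100a8, S100a9 and Il1b above. Cxcl2, a neutrophil attractant, had 12, 153 and 115 counts in vehicle replicates 1 to 3, against 13, 9 and 10 in R788 + anti-PDL1. Il6, an inflammatory cytokine outside the naming rule and chosen after its values were seen, had 2, 64 and 45 against 15, 14 and 2. Other inflammatory genes were instead highest in vehicle replicate 1, among them Ccl2 and Nfkbia. Ccl2 had 24 CPM there against 15.2 and 15.5 CPM in vehicle replicates 2 and 3, and Nfkbia 69.3 CPM against 51.2 and 53.5 CPM. Without vehicle replicate 1 the log2 fold changes were -3.39 for S100a8, -3.83 for S100a9, -2.15 for Il1b and -2.65 for Lcn2. Other vehicle tumors carried more of the difference for some genes. Without vehicle replicate 2 the values were -2.27 for S100a8 and -2.17 for Lcn2, and without vehicle replicate 3 they were -2.97 for S100a9 and -1.25 for Il1b. Markers of blood and skin cells were also measured. The summed level of 10 red cell and platelet genes was 210 to 636 CPM in vehicle, 68.3 to 118 CPM in R788 + anti-PDL1 and 58.1 to 230 CPM in irradiated tumors, and it was highest in vehicle replicate 1, the vehicle tumor with the least S100a8. Of 7 tested genes of that list edgeR called 0 and DESeq2 called 4 hemoglobin genes, all lower with R788 + anti-PDL1, against 0.678% and 4.86% of all genes. Of 16 keratinocyte markers, 3 had 0 counts throughout. All 16 summed to 17.0 to 20.7 CPM in vehicle, 12.3 to 74.7 CPM in R788 + anti-PDL1 and 56.3 to 83.7 CPM in irradiated tumors, with overlap between the first 2 groups. Krt5 made up most of the sum in irradiated tumors, and the other genes of the list did not all follow it. Krt14 had 4, 41 and 43 counts in vehicle, 0 in every R788 + anti-PDL1 tumor and 0, 2 and 0 in irradiated tumors. Krt6a had 0, 37 and 12 counts in vehicle and 0 in every treated tumor. Krtdap had 0, 3 and 0 counts in vehicle and 0, 54 and 23 in R788 + anti-PDL1. Krt14, Krt6a and Krtdap were also chosen after their values were seen. Of 5 tested genes of the list edgeR called 0 with R788 + anti-PDL1, and DESeq2 called 2, Krt5 higher and Sprr1a lower. The part of these cells in the levels of S100a8, S100a9, Lcn2 and Il1b was not tested.

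Adding radiation was compared with the drug combination alone. Lcn2 showed the widest difference of the 9 genes, with 4.13, 2.58 and 2.51 CPM in irradiated tumors (56, 51 and 55 counts) against 0.0881, 0.191 and 0.164 CPM. Every irradiated tumor was above every other tumor, and the mean was 20.8-fold higher than with R788 + anti-PDL1, at 3.07 ± 0.912 against 0.148 ± 0.0533 CPM (SD, n = 3). The log2 fold change was 4.31 ± 0.69 with an unadjusted p of 0.000123, an edgeR adjusted p of 0.133 and a DESeq2 adjusted p of 2.95e-06. With edgeR, 0 of the 7 tested genes were called, against 0.00628% of all genes, while DESeq2 called 1, Lcn2, against 5.62%. In edgeR the unadjusted p was under 0.05 for 4 of the 7, against 18.4%, and the groups did not overlap at 4, all higher with radiation, against 27.4%. The limits given above, from the choice of genes and the low-count filter, hold for these shares too.

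S100a8 had 1.11, 0.558 and 1.0 CPM in irradiated tumors (15, 11 and 22 counts), above all R788 + anti-PDL1 tumors. S100a9 had 0.663, 0.760 and 1.19 CPM (9, 15 and 26 counts), likewise without overlap. Their log2 fold changes were 1.92 ± 0.72 and 1.92 ± 0.72, with edgeR adjusted p-values of 0.239 and 0.24. Both subunits had thus nearly the same estimate, and neither was called by either tool. Il1b had 1.99, 1.82 and 2.51 CPM (27, 36 and 55 counts), also above all R788 + anti-PDL1 tumors, with a log2 fold change of 1.27 ± 0.54 (edgeR adjusted p = 0.259). Il1a had 0.516, 0.811 and 0.365 CPM and Il1rn 4.20, 1.62 and 9.58 CPM, and both overlapped with R788 + anti-PDL1. Trem1 had 6, 5 and 9 counts in irradiated tumors, each above the 3 counts that a count of 0 allows.

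Csf3r was set by 1 tumor. It had 0.368 and 0.912 CPM in irradiated replicates 1 and 2 (5 and 18 counts) and 13.7 CPM in irradiated replicate 3 (300 counts). The first 2 were the lowest of all 9 tumors and the third was the highest. The log2 fold change against R788 + anti-PDL1 was 1.55 ± 1.04 (edgeR adjusted p = 0.419) and became -1.38 without irradiated replicate 3. Against vehicle it was 0.81 ± 1.02 (edgeR adjusted p = 0.704) and became -2.13. In the same tumor 15 macrophage and monocyte markers, none of them at 0 in all libraries, summed to 2050 CPM against 347 to 778 CPM in the 8 others, and Csf1r, the macrophage growth factor receptor, reached 203 CPM against 17.8 to 78.3 CPM. The 10 T cell markers summed to 46.4 CPM against 3.68 to 29.9 CPM. Some genes of the neutrophil list were also highest in this tumor. Fpr1 had 29 counts against 0 to 9 elsewhere, and Fpr2 had 50 against 1 to 17, both chosen after their values were seen. Others were not, with Cxcr2 at 39 counts and Mmp8 at 5. The 29 genes of that list without Mmp9 summed to 28.3 CPM there, within the 15.2 to 39.6 CPM of the other tumors. S100a8, S100a9 and Lcn2 in this tumor were within or near the range of the other irradiated tumors, at 1.0, 1.19 and 2.51 CPM. The part of these cells in the Csf3r level was not tested.

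**Figure D2:**
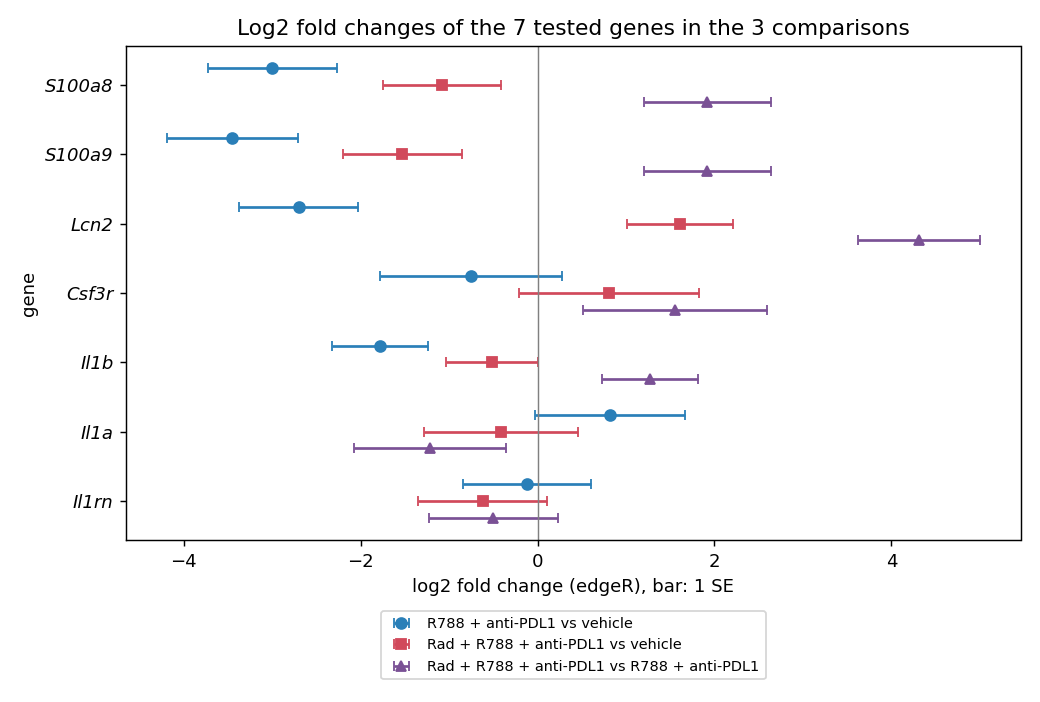
Log2 fold changes from edgeR (x axis) with 1 SE for the 7 tested genes (y axis) in the 3 comparisons, which share groups and are not independent. Lcn2 spans the widest range, from -2.70 in R788 + anti-PDL1 against vehicle to 4.31 with radiation added, and Il1rn stays within 1 SE of 0 in each comparison.

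Irradiated tumors were then compared with vehicle, which shares its control tumors with the first comparison. With edgeR, 0 of the 7 tested genes were called, against 0.0439% of all genes, and DESeq2 called 0, against 3.85%. An unadjusted p under 0.05 was obtained for 2 of the 7 with edgeR, Lcn2 and S100a9, against 13.2%, and groups did not overlap at 1, Lcn2, against 20.5%. Lcn2 was 3.08-fold higher in mean, with a log2 fold change of 1.61 ± 0.60 (edgeR adjusted p = 0.33). S100a9 was lower, at -1.53 ± 0.67 (edgeR adjusted p = 0.373), and S100a8 had -1.08 ± 0.67 (edgeR adjusted p = 0.46). For both subunits the irradiated tumors lay around vehicle replicate 1 and below vehicle replicates 2 and 3. Il1b had -0.51 ± 0.52, with a 95% interval from -1.54 to 0.51. The intervals of Il1a (-2.12 to 1.30) and Il1rn (-2.05 to 0.81) also contained 0 and were wide enough to hold changes of either sign. Lcn2 was thus the one gene of the group whose irradiated level lay above vehicle in every tumor, with calprotectin lower in mean.

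Levels were compared between the genes per kilobase of exon (RPKM, computed here from CPM and GENCODE exon lengths). In vehicle tumors the order was S100a9 (4.86 ± 3.0), S100a8 (2.70 ± 2.01), Il1b (1.58 ± 0.989), Il1rn (1.43 ± 0.336), Csf3r (0.794 ± 0.148), Lcn2 (0.380 ± 0.246), Il1a (0.378 ± 0.128), Retnlg (0.350 ± 0.286) and Trem1 (0.184 ± 0.116). Neighbours in this order differed by less than the larger of their SDs, apart from Csf3r, which lay further from both Il1rn and Lcn2. In R788 + anti-PDL1 tumors Il1rn stood first at 1.32 ± 0.963 RPKM, followed by Il1a at 0.672 ± 0.534, while S100a9 was at 0.431 ± 0.283, S100a8 at 0.328 ± 0.145 and Lcn2 at 0.0563 ± 0.0203. In irradiated tumors S100a9 was again first at 1.67 ± 0.533 RPKM, and Lcn2, at 1.17 ± 0.348, was close to S100a8 at 1.28 ± 0.420 and Il1b at 1.11 ± 0.187.

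Across the 9 libraries, which share the group structure, log2 CPM of S100a8 and S100a9 had a Pearson r of 0.92, S100a9 and Il1b 0.92, and S100a8 and Il1b 0.88. Lcn2 had 0.60 with S100a8, and Il1a had -0.22. Among 11641 genes averaging 50 counts or more, the 5 most like S100a8 were Mbd2 (r = 0.96), Lbh (0.95), Nr4a1 (0.95), Hp (0.93) and Usp29 (0.92). Those most like Il1b were Lbh (0.93), Nr4a1 (0.92), Hp (0.90), Gem (0.90) and Usp29 (0.90), so that 4 genes stood on both lists. Nr4a1 encodes a nuclear receptor of the immediate-early class, with 19.6, 71.0 and 55.5 CPM in vehicle, 14.8, 19.6 and 15.8 in R788 + anti-PDL1 and 38.5, 32.3 and 29.0 in irradiated tumors. Its vehicle replicate 1 was again near the treated tumors.

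Hp (haptoglobin), an acute-phase protein that neutrophils also store, belonged to the neutrophil list. It had 0.938, 9.20 and 9.20 CPM in vehicle, 0.352, 0.611 and 0.328 CPM in R788 + anti-PDL1 and 8.62, 1.77 and 2.28 CPM in irradiated tumors. Between R788 + anti-PDL1 and vehicle it differed by -3.88 ± 0.95 on the log2 scale (edgeR adjusted p = 0.111) and 3.26 ± 0.93 with radiation added (edgeR adjusted p = 0.221). Asprv1, an aspartic protease, had the same directions, at -3.38 ± 0.87 and 2.66 ± 0.88. It had 13, 14 and 17 counts in vehicle, 0, 2 and 3 in R788 + anti-PDL1 and 10, 4 and 10 in irradiated tumors. Its R788 + anti-PDL1 counts were all at or under the floor of 3, which limits both folds. Other genes of that list went the opposite way. Mmp9 (gelatinase B), outside the naming rule, had 10.8, 9.73 and 10.6 CPM in vehicle and 76.1, 12.4 and 62.6 CPM in R788 + anti-PDL1, with a log2 fold change of 2.28 ± 0.55 (edgeR adjusted p = 0.11). In all, 6 of the 17 tested genes of the list had a positive and 11 a negative log2 fold change in that comparison, with a median of -0.53 against -0.02 for all genes. There edgeR called 0 and DESeq2 called 3, Hp and Asprv1 lower and Mmp9 higher, and with radiation added edgeR called 0 and DESeq2 called 2, Hp higher and Hdc lower. Of all genes, edgeR called 0.678% and DESeq2 4.86% in the first comparison, and 0.00628% and 5.62% with radiation added. In irradiated tumors against vehicle the shares were 0.0439% and 3.85%. The same shares stand beside the counts called in the lists below.

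Most genes that recruit neutrophils had lower means in R788 + anti-PDL1 tumors, and the tools differed on how many to call. Of 14 chemoattractants and growth factors 9 were tested, 7 with a negative log2 fold change and a median of -0.70. The count called was 0 with edgeR, 1 with edgeR without the low-count filter, and 4 with DESeq2 (Cxcl1, Cxcl2, Cxcl3 and Ppbp, all lower). Over all genes, edgeR called 0.678%, or 199 of 27965 without the filter, and DESeq2 called 4.86%. The groups did not overlap at 3 of the 9 (33.3%), near the 30.1% of all genes. Cxcl3, a CXCR2 ligand, had 0.662, 5.74 and 6.41 CPM in vehicle, 0.264, 0 and 0.409 CPM in R788 + anti-PDL1 and 2.14, 0.760 and 1.05 CPM in irradiated tumors. Cxcl2 and Cxcl3 had log2 fold changes of -3.37 ± 0.80 and -4.23 ± 1.12 against vehicle (edgeR adjusted p = 0.109 and 0.144). With radiation added, Cxcl2 differed little, at 0.45 ± 0.79, whereas Cxcl3 had 2.52 ± 1.09 (edgeR adjusted p = 0.771 and 0.265). Cxcl1 had 3.25, 14.8 and 11.4 CPM in vehicle and 3.52, 1.57 and 1.92 CPM in R788 + anti-PDL1, where 1 tumor of each group overlapped. Csf3, the ligand of the receptor encoded by Csf3r, had 0, 9 and 12 counts in vehicle, 0 in each R788 + anti-PDL1 tumor, which allows up to 3 counts per tumor, and 8, 2 and 4 in irradiated tumors. Cxcl5 had 4, 26 and 14 counts, then 1, 1 and 8, then 6, 8 and 6, in the same order of groups. Ppbp, a platelet chemokine outside the naming rule that is plotted with these genes, had 0.717, 3.81 and 2.68 CPM in vehicle and 0.115 to 0.617 CPM in R788 + anti-PDL1.

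**Figure D3:**
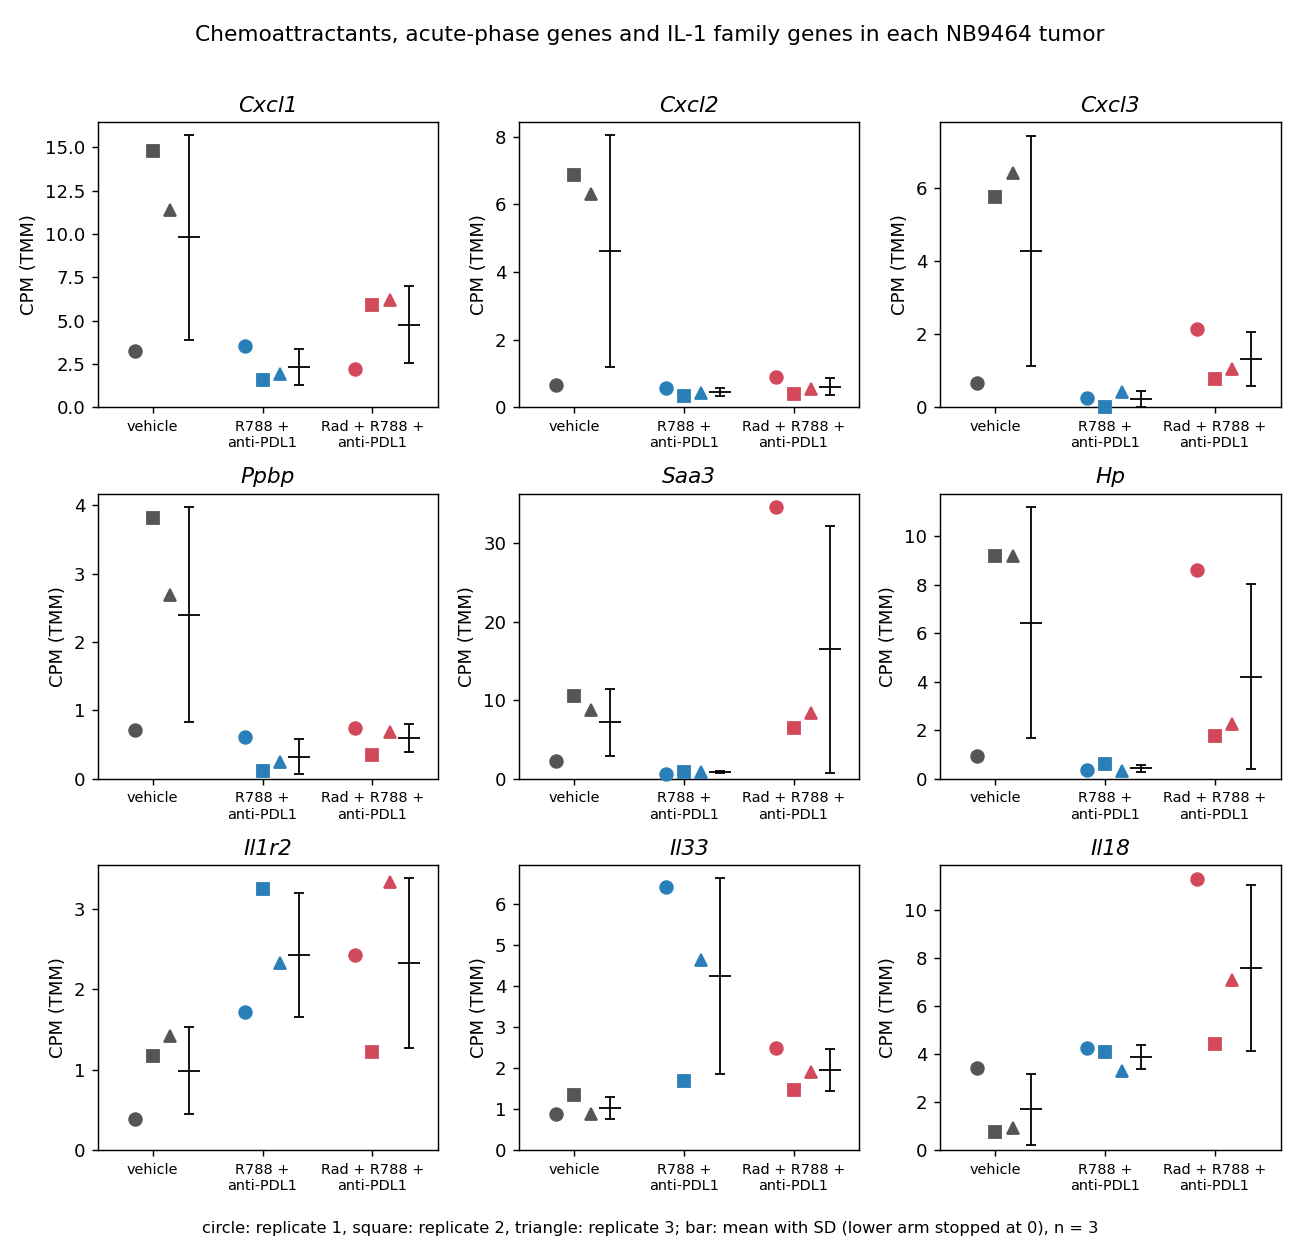
Levels in CPM (y axis, linear, scaled by TMM) of 5 chemoattractant and acute-phase genes, haptoglobin and 3 IL-1 family genes in each tumor of the 3 groups (x axis), with a marker per replicate and a bar for the mean with SD (n = 3). Vehicle replicate 1 is the lowest vehicle tumor for Cxcl1, Cxcl2, Cxcl3, Ppbp, Saa3 and Hp, while Il33 is higher in all R788 + anti-PDL1 tumors than in vehicle, at 1.68 to 6.43 against 0.876 to 1.35 CPM.

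Genes that respond to NF-kB and IL-1 had a median log2 fold change of -0.86 in R788 + anti-PDL1 against vehicle, with 12 of 15 tested negative. In that comparison edgeR called 0 and DESeq2 called 3 (Saa3, Ccl2 and Relb, all lower), and with radiation added edgeR called 0 and DESeq2 called 3 (Saa3, Nfkbia and Relb, all higher). Saa3, an acute-phase serum amyloid, had the directions of Lcn2 in these comparisons. It had 2.32, 10.5 and 8.76 CPM in vehicle, 0.661, 0.916 and 0.901 CPM in R788 + anti-PDL1 and 34.6, 6.49 and 8.44 CPM in irradiated tumors, with log2 fold changes of -3.11 ± 0.77 (edgeR adjusted p = 0.115) and, with radiation added, 4.31 ± 0.80 (edgeR adjusted p = 0.133). Unlike Lcn2, Saa3 overlapped between irradiated and vehicle tumors, and vehicle replicate 3 was not its lowest vehicle tumor. Irradiated replicate 1, the library that stood apart, held the highest irradiated levels of Saa3, Hp and Lcn2. Without it the log2 fold change of Lcn2 with radiation added was 4.05. Ccl2, a monocyte attractant, was lower with R788 + anti-PDL1, at -1.30 ± 0.34 (edgeR adjusted p = 0.137), and had 0.81 ± 0.34 with radiation added.

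The receiving side of IL-1 showed smaller differences. Il1r1, the signalling receptor, had 28.0, 80.7 and 67.6 CPM in vehicle, 39.5, 67.2 and 46.0 CPM in R788 + anti-PDL1 and 24.2, 65.1 and 60.6 CPM in irradiated tumors, all overlapping. Il1rap, its co-receptor, had a log2 fold change of -0.57 ± 0.40 against vehicle (edgeR adjusted p = 0.661). Il1r2, a decoy receptor that binds IL-1 without signalling, had 0.386, 1.17 and 1.42 CPM in vehicle and 1.72, 3.25 and 2.33 CPM in R788 + anti-PDL1, without overlap and with 1.29 ± 0.59 (edgeR adjusted p = 0.44). Among the other ligands Il33 had 2.03 ± 0.54 in R788 + anti-PDL1 (edgeR adjusted p = 0.146) and Il18 had 2.15 ± 0.61 in irradiated tumors against vehicle (edgeR adjusted p = 0.247). Both were higher in every treated tumor than in any vehicle tumor in those comparisons. Of 12 tested IL-1 family receptors and ligands, 8 had a positive log2 fold change against vehicle in both, with 0 called by edgeR and 1 in each by DESeq2, Il33 and Il18.

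The machinery that cuts and relays IL-1 was measured at higher counts. Myd88, the adaptor, had 38.3, 37.0 and 34.3 CPM in vehicle, 28.5, 27.5 and 27.1 CPM in R788 + anti-PDL1 and 47.6, 41.8 and 49.7 CPM in irradiated tumors. The 3 groups did not overlap, with log2 fold changes of -0.40 ± 0.17, 0.34 ± 0.17 and, with radiation added, 0.74 ± 0.17 (edgeR adjusted p = 0.386, 0.391 and 0.158). Casp1, the protease that activates IL-1 beta, had 2.32, 1.66 and 1.97 CPM in vehicle and 3.30, 3.86 and 3.03 CPM in R788 + anti-PDL1, opposite in direction to Il1b. In irradiated tumors Casp1 was 1.25 and 1.06 CPM in replicates 1 and 2 and 5.61 CPM in replicate 3, the pattern of Csf3r. Nlrp3, an inflammasome sensor, had 0.589, 0.963 and 2.97 CPM there. Of 16 tested processing and signalling genes 0 were called in any comparison by edgeR and 1, Myd88 with radiation added, by DESeq2, and their median log2 fold changes were -0.12 and 0.32 against vehicle and 0.31 with radiation added, where all genes tested had -0.02, 0.05 and 0.04.

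Partners that bind the proteins of the 9 genes were also followed, and of 11 tested 0 were called by edgeR in any comparison and 1, Ager with radiation added, by DESeq2. Tlr4, a receptor reported to bind calprotectin, had 2.81, 4.89 and 4.27 CPM in vehicle and 5.15, 8.59 and 7.70 CPM in R788 + anti-PDL1, with a log2 fold change of 0.84 ± 0.53 (edgeR adjusted p = 0.624). With radiation added Tlr4 had 0.51 ± 0.53 (edgeR adjusted p = 0.6). Ager, which encodes another calprotectin receptor, had -1.24 ± 0.52 in R788 + anti-PDL1 against vehicle and 1.86 ± 0.52 with radiation added (edgeR adjusted p = 0.389 and 0.216). Those were the directions of S100a8 and S100a9. In irradiated tumors against vehicle Ager had 0.63 ± 0.51 (edgeR adjusted p = 0.557), opposite in sign to both subunits. Within vehicle it was highest in replicate 1, at 2.87 CPM against 2.38 and 2.14 CPM, where both subunits were lowest.

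**Figure D4:**
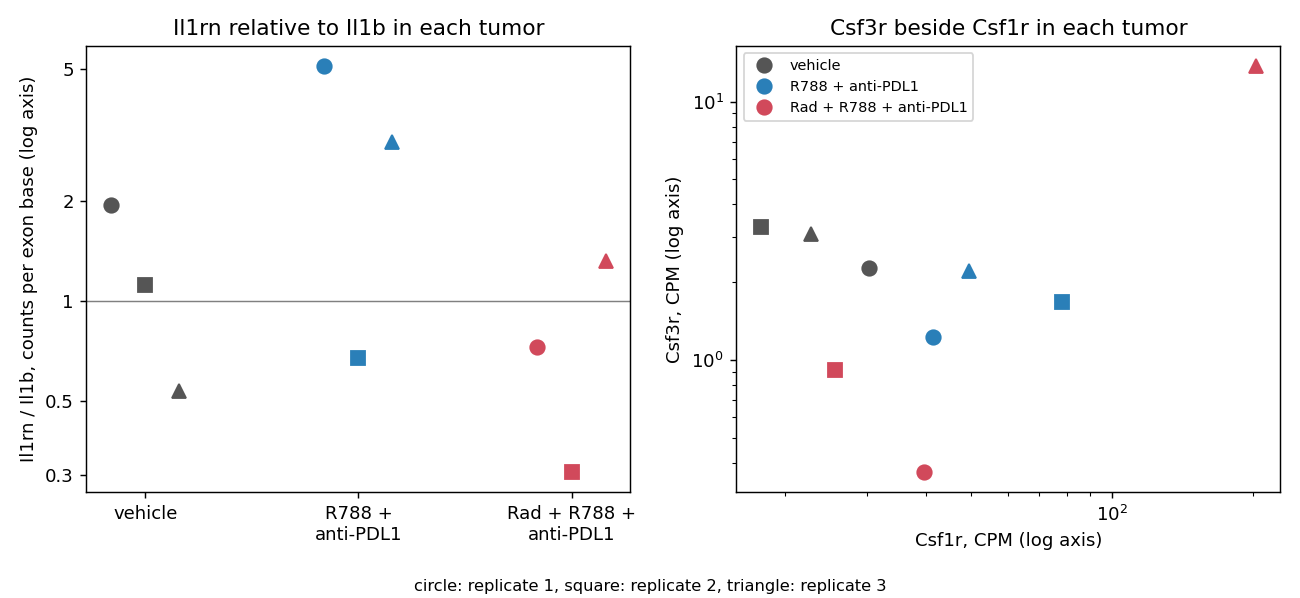
Left, the ratio of Il1rn to Il1b in counts per base of exon (y axis, log) in each tumor by group, with a line at 1, and right, Csf3r against Csf1r in CPM (both axes log) with a color per group and a marker per replicate. The ratio ranges from 0.306 to 5.08 with overlap between groups, and irradiated replicate 3 lies alone at the top right with 13.7 CPM of Csf3r and 203 CPM of Csf1r.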

How the data were processed

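Per the labels, poly(A) libraries were made from whole tumors. The extraction text names macrophages instead, and the labels' paired-end run differs from the single-read run in the study's methods. The authors aligned reads to mm10 with STAR and quantified them with Salmon. The submitters' processing notes list STAR 2.6.1d, Salmon 1.4.0, SAMtools 1.9, Picard 2.26 and MultiQC 1.11. The annotation and strandedness were not given in the sources used here. The deposited values were estimated counts per gene symbol, already whole numbers and not normalized, and 0 columns were unmapped.

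Here, filterByExpr (minimum count 10) left 15931 genes. All 9 libraries were fitted in edgeR 4.0.16 (R 4.3.3) with TMM and the robust quasi-likelihood test, without covariates, two-sided, with a call at an adjusted p (Benjamini-Hochberg) under 0.05. The method was tested on simulated data. Alternatives were RLE scaling, DESeq2 1.42.0, no filter, the 6 libraries compared, a replicate block and leaving out each library. Chosen after seeing the data were leaving out each library in DESeq2, and leaving out irradiated replicate 1 from the comparison of R788 + anti-PDL1 with vehicle. The floors account for counting error alone, because PCR copies of a molecule were not marked.

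The 9 genes and the companion lists were chosen with earlier results of these data known. Named were all 9, the companion genes called in any comparison, the 2 tested genes per list and comparison with the largest absolute log2 fold change among those without overlap, a fixed set (Ly6g, Cxcr2, Mmp8, Mpo, Elane, Il1r1, Il1r2, Il1rap, Casp1, Nlrp3, Cxcl1, Cxcl2, Cxcl5, Csf3, Tlr4, Tyrobp), and the 5 genes most like S100a8 and Il1b. Only those that bear on the 9 are described. Ngp, Cxcr1 and the neuroblast markers other than Isl1 are named outside this rule, as checks of the labels. Coordinates and exon lengths came from GENCODE M21 (GRCm38), promoters from RefSeq. No batch was given in the labels.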

Additional observations from a re-analysis of the deposited data

How the results depend on the processing

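In R788 + anti-PDL1 against vehicle, 0 of the 7 tested genes were called in the reported fit, 4 with DESeq2, 1 without the low-count filter (S100a9), and 0 to 4 with a library left out, the higher counts all with DESeq2. Over all genes these settings called 108 of 15931, 770 of 15855, 199 of 27965, and 0 to 2068 with a library left out. With radiation added, 1 was called with DESeq2, 1 without the filter (Lcn2), and 0 to 1 with a library left out, and in DESeq2 without irradiated replicate 1 Lcn2 had no adjusted p. Over all genes these settings called 822 of 14620, 24 of 27965, and 0 to 1980 with a library left out. In irradiated tumors against vehicle the range was 0 to 1, the 1 being Csf3r in DESeq2 without irradiated replicate 3 (adjusted p = 0.0269). That fit called 475 of 15927 genes. The replicate block called 0 in each comparison and turned Csf3r in irradiated tumors against vehicle to -0.32. Whether replicate numbers pair the samples was not settled by these values. Same-numbered deviations correlated at -0.05 to 0.23, the highest in irradiated tumors against vehicle. In R788 + anti-PDL1 against vehicle 0 of 6 libraries correlated best with their own number. The count was 4 of 6 in irradiated tumors against vehicle and 3 of 6 with radiation added.

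With a library left out, log2 fold changes turned sign for Csf3r against vehicle (irradiated, -2.13 to 1.39, with -2.09 in DESeq2) and against R788 + anti-PDL1 (-1.38 to 2.11, with -1.37 in DESeq2), for Il1rn in R788 + anti-PDL1 against vehicle (-0.73 to 0.37, turning at 0.08, 0.1, 0.35 and 0.37) and with radiation added (-1.34 to 0.11, turning at 0.1 and 0.11), and for Il1b in irradiated tumors against vehicle (-0.89 to 0.04, turning at 0.02 and 0.04). The other 16 estimates kept their sign under every alternative. The cause was not tested. Low counts, with 0 to 10 per drug-group tumor for S100a8, S100a9, Lcn2, Trem1 and Retnlg, limit these folds.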

Other observations

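R788 + anti-PDL1 replicate 2, the tumor with the lowest Il1a of all 9, differed from the other tumors of its group in further genes outside the 9. Mmp9 had 12.4 CPM there against 76.1 and 62.6 CPM, and Il33 had 1.68 CPM against 6.43 and 4.63 CPM. Cd4, a T cell marker that macrophages can also express, had 2.02 CPM against 22.9 and 12.2 CPM. Krt5, a basal keratin, went the other way with 63.1 CPM against 1.89 and 22.7 CPM. The summed macrophage and monocyte markers did not set it apart, at 778 CPM against 756 and 771 CPM, but single markers differed in both directions. Cd68 had 31.2 CPM there against 65.6 and 57.9 CPM, and Mertk had 13.4 CPM against 29.2 and 24.2 CPM. Csf1r was higher there, at 78.3 CPM against 41.4 and 49.6 CPM, as was Ccr2, at 34.5 CPM against 5.06 and 11.3 CPM. These genes were chosen after their values were seen, and no test was made within the group.

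Isl1, a transcription factor of sympathetic neuroblasts, was the one companion gene that edgeR called. The call was lost under the replicate block and without vehicle replicate 2 or 3 or R788 + anti-PDL1 replicate 1 or 3. It had 0 counts in each vehicle tumor, which allows up to 3 counts per tumor, 80, 48 and 63 counts in R788 + anti-PDL1 and 14, 27 and 21 counts in irradiated tumors (edgeR adjusted p = 0.0344 and 0.0606 against vehicle). Hdc, which makes histamine in mast cells and neutrophils and was chosen after its values were seen, had 0.496, 1.12 and 0.876 CPM in vehicle, 2.33, 3.17 and 1.60 CPM in R788 + anti-PDL1 and 0.663, 0.760 and 0.502 CPM in irradiated tumors (edgeR adjusted p = 0.253 against vehicle and 0.206 with radiation added). Il23a, a cytokine subunit upstream of neutrophil recruitment, had 1.32, 1.57 and 0.985 CPM in vehicle and 5.23, 3.50 and 4.61 CPM in irradiated tumors (edgeR adjusted p = 0.268).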
